A study of Mus musculus with 2 samples.

Results

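The collagen gene family was followed in RNA from skeletal muscle of newborn mice. Members were the genes whose symbol is Col, a type number, the letter a and a chain number, and 44 of the 43346 genes in the deposited tables met this rule. The rule uses the symbol and no measured value. Muscle came from B6NCrl mice, a C57BL/6N substrain, at postnatal day 0. There were 2 libraries, each made from 13 pg of total RNA of a piece of muscle of 1 pup; the labels count this input as 1 cell equivalent, and no cell was isolated. Full-length cDNA was amplified by a SmartSeq protocol, and spike-in RNAs were added. No agent or mutation is named in the labels for either library, sex was not collected, and the same donor entry stands for both libraries. The labels number them as biological replicates, and whether their pups differ is not stated. Both libraries, called replicate 1 and replicate 2, belong to 1 group, so there is no condition to compare and no test, and values are compared between genes and between libraries.

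Collagens are secreted or membrane-bound matrix proteins made of chains that wind around each other in a triple helix. The helix needs glycine, the smallest amino acid, at every 3rd position of each chain. Fibrillar collagens build the load-bearing fibrils of connective tissue, and basement membrane collagens form the sheet around each muscle fibre and vessel. FACIT collagens sit on the surface of fibrils, and beaded collagens form fine microfibrils that link the fibre's basement membrane to the surrounding matrix. Transmembrane collagens are held in the cell membrane. In muscle most collagen is made by fibroblasts of the connective tissue between fibres. Because the tissue is a mixture, fewer cells of a type and less RNA per cell cannot be told apart.

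The glycine repeat can be read from the coding sequence, since every glycine codon starts with GG. The first 30 codons of the longest unbroken run are shown for 5 members that carry the results, from GENCODE M21 transcripts on GRCm38. They are printed 5′ to 3′ along the coding strand, with the glycine codons of the repeat in capitals and any other glycine codon in lower case.
Col1a1, codons 168 to 197: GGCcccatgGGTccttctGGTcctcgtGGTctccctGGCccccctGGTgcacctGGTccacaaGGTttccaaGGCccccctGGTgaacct
Col1a2, codons 97 to 126: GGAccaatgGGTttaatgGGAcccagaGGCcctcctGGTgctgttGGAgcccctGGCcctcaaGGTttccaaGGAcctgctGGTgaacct
Col3a1, codons 164 to 193: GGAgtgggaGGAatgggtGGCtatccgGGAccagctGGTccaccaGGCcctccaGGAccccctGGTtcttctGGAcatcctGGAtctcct
Col6a1, codons 256 to 285: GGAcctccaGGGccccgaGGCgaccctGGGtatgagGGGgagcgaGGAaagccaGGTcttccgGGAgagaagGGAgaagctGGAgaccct
Col12a1, codons 2805 to 2834: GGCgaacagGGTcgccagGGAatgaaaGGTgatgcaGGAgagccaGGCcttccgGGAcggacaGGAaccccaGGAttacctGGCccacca
In each of these stretches 10 of 30 codons are glycine codons of the repeat, spaced 3 codons apart. Basement membrane chains have many breaks in the repeat. For the pair of these chains detected in muscle, the first break of at most 6 extra codons between runs of at least 6 glycine triplets is shown. Breaks of other sizes were passed over.
Col4a1, codons 209 to 238: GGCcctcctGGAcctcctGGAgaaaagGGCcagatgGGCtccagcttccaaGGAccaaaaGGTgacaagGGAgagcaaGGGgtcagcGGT
Col4a2, codons 402 to 431: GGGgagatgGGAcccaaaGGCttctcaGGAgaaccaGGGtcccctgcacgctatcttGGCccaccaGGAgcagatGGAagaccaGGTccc
At these breaks the spacing between the capitalised glycine codons widens from 3 to 5 codons in Col4a1 and to 7 codons in Col4a2.

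The runs differed between classes in length and number. Fibrillar members had the longest, with a median of 338 triplets and a range of 216 to 344, and a median of 2 runs of at least 6 triplets per gene. Col1a1, Col1a2 and Col3a1 had 338, 339 and 344 triplets in their longest run. Basement membrane members had a median longest run of 43.5 triplets and a median of 23.5 runs, which together held a median of 76.8% of their codons. In beaded members runs held a median of 14.4% of codons, and Col6a1 and Col6a2 had the longest at 87 triplets each. FACIT members ranged from 32 triplets, the value of Col12a1, Col14a1 and Col20a1, to 113, the value of Col9a1, Col9a2, Col9a3 and Col22a1. These are properties of the annotated sequence and not of the RNA measured here.

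Collagen RNA was present in both libraries as 17 of the 44 members. A gene was called detected at 1 TPM or more with at least 5 expected counts, where TPM is a length-adjusted share of all transcripts and expected counts are estimated reads. The same was true of 18.2% of the 21474 protein coding genes. A further 6 members were detected in replicate 2 only, 0 in replicate 1 only, 2 were under the limit in both libraries and 19 had 0 counts in both. All 17 members detected in replicate 1 were also detected in replicate 2, against 68.6% of all genes detected in replicate 1. In the other direction 17 of 23 members were shared, against 62.7% of all genes detected in replicate 2. The genes of these shares were not matched to the members by level. The 17 members each had at least 760 expected counts in replicate 1. Expected counts totalled 32103374 for replicate 1 and 38977618 for replicate 2, and 6350 and 6949 genes were detected.

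By class, 7 of 11 fibrillar members were detected in both libraries, 4 of 6 beaded, 2 of 6 basement membrane, 2 of 9 FACIT, 0 of 4 transmembrane and 2 of 8 members of other classes. Of the 17 shared members the lowest was at 10.77 TPM in replicate 1 and at 2.27 TPM in replicate 2. Of the other members the highest reached 0.48 TPM in replicate 1 but 33.55 TPM in replicate 2.

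**Figure D1:**
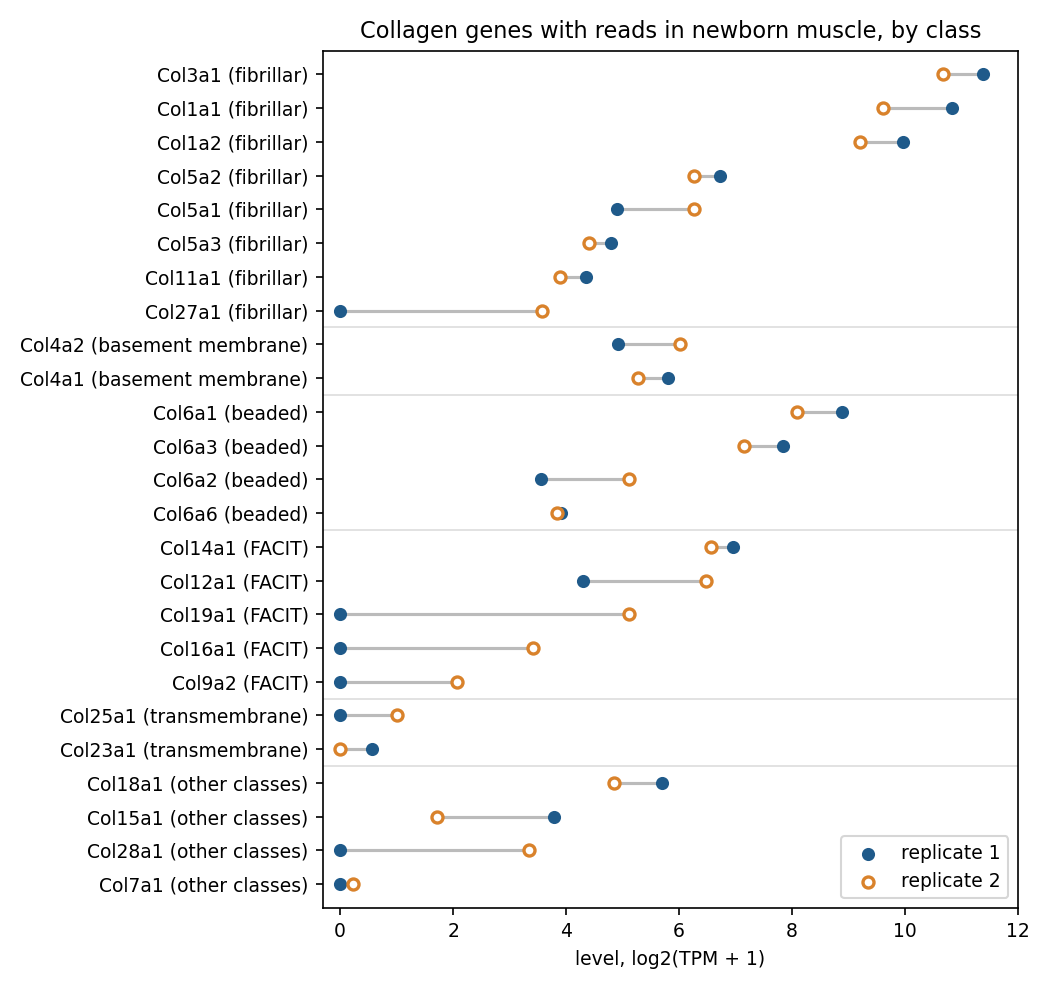
Level of the 25 collagen genes with any reads, as log2(TPM + 1) on the horizontal axis, grouped by class. Filled points are replicate 1 and open points replicate 2, joined by a line; 6 members lie at 0 in replicate 1 but above 1 TPM in replicate 2.

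Together the members held 0.671% of all TPM in replicate 1 and 0.404% in replicate 2, a mean of 0.537 ± 0.189% (SD, n = 2, as for all SDs). Their summed level was 6705.53 and 4038.37 TPM. Collagen transcripts are long, and their share of expected counts, which are not adjusted for length, was higher at 2.25% and 1.48%. Fibrillar members made up 84.8% and 79.5% of collagen TPM, a mean of 82.1 ± 3.77%. Beaded members held 10.9% and 11.3%, a mean of 11.1 ± 0.326%. FACIT members held 2.11% and 5.67%, and basement membrane members 1.26% and 2.51%, so both of these shares were higher in replicate 2. Other classes held 0.949% and 0.982%, and transmembrane members 0.00716% and 0.0250%.

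**Figure D2:**
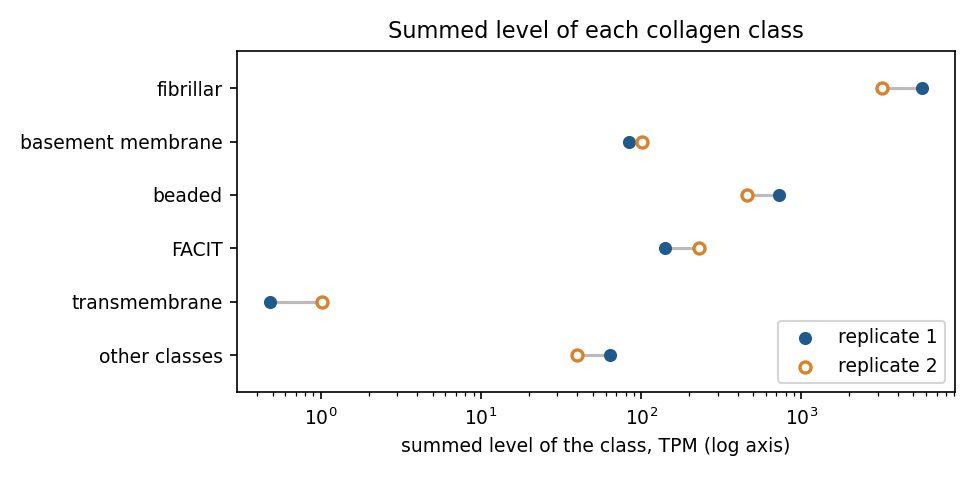
Summed level of each collagen class in TPM on a log axis, with filled points for replicate 1 and open points for replicate 2. Fibrillar genes summed to 5686.85 and 3209.69 TPM and beaded genes to 728.75 and 457.53 TPM, while FACIT and basement membrane genes were higher in replicate 2.

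The interstitial fibril collagens were the top 3 members in both libraries and held 82.1% and 74.6% of collagen TPM. Col3a1, the chain of type III collagen of compliant tissues (chromosome 1, 45311538 to 45349706), was at 2679.04 TPM in replicate 1 and 1636.79 TPM in replicate 2. These values rested on 203960 and 170403 expected counts, and the gene ranked 49th of all genes by mean TPM. Col1a1, the alpha 1 chain of type I collagen, the main fibril former of tendon and bone (chromosome 11, 94936224 to 94953042), was at 1828.98 and 784.2 TPM. Col1a2, the alpha 2 chain of the same molecule (chromosome 6, 4504814 to 4541544), was at 998.59 and 591.64 TPM. In TPM all 3 were higher in replicate 1, by 1.64, 2.33 and 1.69-fold, but relative to the spike-ins Col1a1 alone was. The order of the genes by TPM was the same in both libraries.

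Type I collagen holds 2 alpha 1 chains for each alpha 2 chain, and its RNAs can be set against each other within a library. On the log2(TPM + 1) scale Col1a2 stood below Col1a1 by a difference of -0.87 in replicate 1 and -0.41 in replicate 2, which is 1.83 and 1.32-fold. The mean of -0.64 ± 0.33 did not exceed 2 SD, the limit used for such ratios. It did exceed it over long coding transcripts (-0.68 ± 0.28), those protein coding transcripts at least 50% as long as the gene's longest one, and in expected counts (-0.83 ± 0.29). With n = 2 this limit only describes the values and tests nothing.

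Col3a1 stood above Col1a1 in gene TPM, by 0.55 and 1.06 log2, a mean of 0.81 ± 0.36 that exceeded 2 SD. This did not hold for the full-length transcript. Of the gene's TPM, 48.3% in replicate 1 and 44.0% in replicate 2 was assigned to Col3a1-205, an annotated coding transcript of 737 bases. All of its 737 bases also lie in the full-length Col3a1-201 of 5564 bases, between bases 2737 and 4346 of that transcript. The short form took 20158.7 and 14354.7 expected counts, against 183744 and 156006 for Col3a1-201, whose TPM was 1377.90 and 913.55. Over long coding transcripts the ratio of Col3a1 to Col1a1 was -0.41 and 0.22, a mean of -0.091 ± 0.45. In expected counts it was -0.35 and 0.26, a mean of -0.046 ± 0.43. Which of these RNAs was higher therefore depended on the unit and on the library.

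Type V and type XI collagens are minor fibrillar collagens that sit inside fibrils of the major collagens and limit their width. Col5a2, the alpha 2 chain of type V (chromosome 1, 45374321 to 45503282), was at 104.99 TPM in replicate 1 and 75.54 TPM in replicate 2. Col5a1, the alpha 1 chain (chromosome 2, 27886425 to 28039514), was at 28.9 and 76.45 TPM, 2.65-fold higher in replicate 2 and so opposite to its partner. Col5a2 therefore exceeded Col5a1 by 1.83 log2 in replicate 1 and differed from it by -0.02 in replicate 2, a mean of 0.90 ± 1.30 that did not exceed the spread. Col5a3, the third chain (chromosome 9, 20770050 to 20815067), was at 26.92 and 20.22 TPM.

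Col11a1, the alpha 1 chain of type XI collagen (chromosome 3, 114030540 to 114220718), was at 19.43 and 13.93 TPM. Its transcripts differed between the libraries more than these gene levels did. In replicate 1 the full-length Col11a1-201 of 7667 bases held 80.2% of the gene's TPM. Its level was 15.59 TPM there and 0.36 TPM in replicate 2, where 97.4% of the gene's TPM was assigned to Col11a1-204, a transcript of 2570 bases annotated as a target of nonsense mediated decay. The same gene thus rested on 3110 expected counts in replicate 1 and 1133 in replicate 2, mostly on different transcripts.

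**Figure D3:**
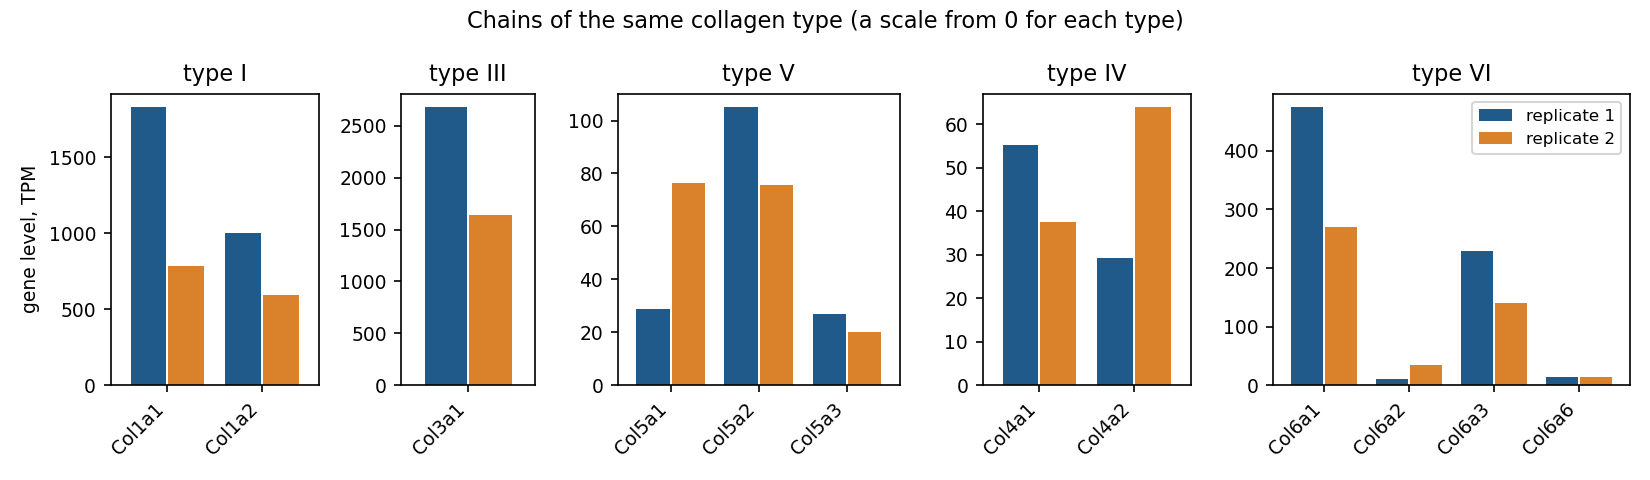
Gene level in TPM for chains of the same collagen type, in bars that start at 0, with a separate scale for each type and replicate 1 beside replicate 2. Col6a2 is far below Col6a1 in both libraries, while the order of Col4a1 and Col4a2 changes between them.

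Type VI collagen, the beaded collagen whose chain genes COL6A1, COL6A2 and COL6A3 are mutated in human muscular dystrophies, showed the clearest difference between chains. Col6a1 (chromosome 10, 76708792 to 76726168) was at 474.39 TPM in replicate 1 and 270.12 TPM in replicate 2. Col6a2, which lies on the same chromosome and strand (76595762 to 76623630), was at 10.77 and 33.73 TPM. The assembled molecule takes the same number of each of these chains, yet Col6a2 RNA stood below Col6a1 RNA by -5.34 and -2.96 log2, or 40.4 and 7.81-fold. The mean of -4.15 ± 1.68 exceeded 2 SD, and it was -4.16 ± 1.65 over long coding transcripts and -4.28 ± 1.74 in expected counts. Col6a2 was itself 3.13-fold higher in replicate 2, and its 1012 and 4082 expected counts were far above the limit of detection. Such counts come from amplified cDNA and do not show how many molecules were sampled. The crosslinking gene Lox, for example, had 4973 counts in replicate 1 and 0 in replicate 2.

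Col6a3, the longest of the main type VI chains (chromosome 1, 90765923 to 90843971), was at 229.5 and 140.4 TPM. Against Col6a1 it stood at -1.04 and -0.94 log2, a mean of -0.99 ± 0.07. Its expected counts went the other way, with 18320 in replicate 1 and 30371 in replicate 2. The deposited length of the gene, an average weighted by its transcripts, was 3370.44 bases in replicate 1 and 7021.73 in replicate 2. In replicate 1, 64.5% of the gene's TPM (147.98 TPM, from 1975.12 expected counts) was assigned to Col6a3-206, a retained intron transcript of 646 bases, of which 481 are shared with the coding Col6a3-202. In replicate 2 that transcript held 5.01% of the gene's TPM, or 7.04 TPM. Col6a3-202, of 9001 bases, was at 71.11 and 85.90 TPM. Over long coding transcripts Col6a3 was 72.07 and 118.76 TPM, the opposite direction to the gene value, and its ratio to Col6a1 was -2.70 and -1.18, a mean of -1.94 ± 1.08 that did not exceed 2 SD. Col6a6, a relative that can replace Col6a3 in the molecule (chromosome 9, 105687809 to 105828160), was even across libraries at 14.09 and 13.28 TPM, all on the coding Col6a6-202. The remaining beaded members, Col6a4 and Col6a5, had 0 counts in both libraries.

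Basement membrane collagen was represented by its widespread pair alone. Col4a1 (chromosome 8, 11198423 to 11312826) was at 55.15 TPM in replicate 1 and 37.57 TPM in replicate 2. Col4a2 (chromosome 8, 11312805 to 11449287) was at 29.32 and 63.88 TPM, 2.18-fold higher in replicate 2. The type IV molecule of most tissues takes 2 alpha 1 chains and 1 alpha 2 chain, but the RNA ratio of Col4a2 to Col4a1 was -0.89 log2 in replicate 1 and 0.75 in replicate 2. The mean of -0.07 ± 1.16 showed no order of these chains. All reads of both genes were assigned to their full-length coding transcripts.

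The type IV genes lie head to head in pairs on opposite strands. Col4a1 and Col4a2 overlap by 22 bases at their starts in the annotation, and whether strand was used in counting is not given in the sources used here, so reads within that overlap may not be told apart. Col4a4 and Col4a3 start 71 bases apart on chromosome 1, and Col4a6 and Col4a5 start 1308 bases apart on chromosome X. Both of the latter pairs, known from kidney, lung and other specialised membranes, had 0 counts in both libraries. For the 19 members with 0 counts, 3 counts in the same library would have been 0.0207 to 0.113 TPM in replicate 1 and 0.0162 to 0.0886 TPM in replicate 2. Such limits cover counting error only, since amplified reads without molecular identifiers are not separate molecules.

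Among FACIT collagens, Col14a1 and Col12a1, which coat type I fibrils in tendon and muscle connective tissue, were detected in both libraries. Col14a1 (chromosome 15, 55307750 to 55520803) was at 122.64 TPM in replicate 1 and 94.24 TPM in replicate 2. Of this, Col14a1-204, a coding transcript of 2085 bases, took 76.64 and 41.92 TPM, and the longer Col14a1-203 took 46.01 and 52.32 TPM. The direction between libraries was thus again opposite for the gene and for its long coding transcript. Col12a1 (chromosome 9, 79598991 to 79718831) was at 18.68 and 88.35 TPM, 4.73-fold higher in replicate 2. Both of its main transcripts were higher there, the full-length Col12a1-201 of 11511 bases at 9.86 and 33.93 TPM and Col12a1-204 of 1784 bases at 8.79 and 52.52 TPM.

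Tendon markers other than collagens went in both directions between the libraries. Thbs4, a tendon matrix thrombospondin, was at 121.24 TPM in replicate 1 and 0 in replicate 2. Fmod, the fibril-binding fibromodulin, was at 79.02 and 0 TPM. Tnmd, tenomodulin, was at 2.78 and 19.63 TPM. Of the 5 markers 1 was detected in both libraries, their summed level was 203.53 and 19.63 TPM, and the transcription factor Scx, which defines tendon cells, had 5 and 0 counts. The part of tendon RNA in the collagen levels was not tested.

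The FACIT members Col19a1, Col16a1 and Col9a2 were detected in replicate 2 only. Col19a1, a collagen known from developing muscle, had 0 counts in replicate 1 and 4423 in replicate 2, where it reached 33.55 TPM. That is 1151-fold above the level that 3 counts would have given in replicate 1. This figure covers counting error only, since amplified reads without molecular identifiers are not separate molecules. It is no lower bound on a difference between the tissues. Col16a1 had 0 and 222 counts (9.68 TPM), all on Col16a1-207, a processed transcript of 833 bases. Col9a2, a chain of cartilage type IX collagen, had 0 and 283 counts (3.21 TPM), all on its coding transcript. The other FACIT members, Col9a1, Col9a3, Col20a1 and Col22a1, had 0 counts in both libraries. Col22a1 is known from the junction of muscle and tendon.

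Fibrillar, transmembrane and other members completed the set seen in replicate 2 only. Col27a1, a fibrillar collagen of cartilage, had 0 and 1529 counts (10.92 TPM), all on the retained intron transcript Col27a1-202. Col28a1, a collagen known from peripheral nerve, had 0 and 1189 counts (9.21 TPM). Col25a1, a transmembrane collagen that muscle needs for innervation by motor nerves, had 0 and 208 counts (1.01 TPM). Beside these, the cartilage and bone markers other than collagens were at 0 in both libraries for 9 of 10 genes, among them the defining Sox9, Acan and Matn1. The exception was Hapln1, the cartilage link protein, at 0 and 9.34 TPM. Of the Schwann cell markers, the receptors Ngfr and Erbb3 were at 7.32 and 13.2 TPM and at 1.97 and 6.91 TPM, and the defining Sox10 had 0 and 1 counts. No count or sum is given for the Schwann list, since it is not reported in full, and its part in the level of Col28a1 was not tested.

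The cartilage collagens Col2a1, Col10a1 and Col11a2 had 0 counts in both libraries, as did Col24a1, a fibrillar collagen, and the type VIII chains Col8a1 and Col8a2. Col13a1, a transmembrane collagen of the nerve to muscle synapse, and Col17a1, that of the epidermal anchoring complex, also had 0 counts, as did Col26a1. Under the limit were Col23a1, with 7 counts in replicate 1 and 0 in replicate 2, and Col7a1, the anchoring fibril collagen of skin, with 0 and 19. None of the 4 epidermal keratins used as markers was detected, with Krt5 at 0 and 0.02 TPM and Krt10 and Krt14 at 0 in both.

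Col18a1 and Col15a1, the multiplexins, are basement membrane zone collagens that carry sugar chains and release fragments acting on vessels. Col18a1 (chromosome 10, 77052178 to 77166548) was at 50.79 TPM in replicate 1 and 28.01 TPM in replicate 2. The shorter coding Col18a1-202 held 50.79 and 22.46 TPM of this, and Col18a1-201 held 0 and 5.04 TPM. Col15a1 (chromosome 4, 47208161 to 47313167) was at 12.87 and 2.27 TPM, 5.67-fold higher in replicate 1, on 760 and 156 expected counts. Its leading transcript, Col15a1-203 of 1755 bases, was at 6.24 and 1.45 TPM. Endothelial markers summed to 516.76 and 237.38 TPM. Of these 6 markers 4 were detected in both libraries, and the defining Pecam1 was at 181.83 and 0.06 TPM. Egfl7 was at 209.49 and 139.70 TPM and Esam at 74.45 and 88.78 TPM, while Tek was at 28.07 and 2.42, Cdh5 at 22.92 and 2.70 and Kdr at 0 and 3.72. Of the 6 markers, Esam and Kdr were thus higher in replicate 2. The part of vessel cells in the level of Col15a1 was not tested.

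Short or noncoding transcripts took a large part of TPM in some members and almost none in others. In 10 of the 17 members over 90% of TPM was on long coding transcripts in both libraries. In 6 members under 60% was in at least 1 library. These 6 were Col3a1, Col6a3, Col11a1, Col12a1, Col14a1 and Col15a1, and the remaining member, Col5a1, was at 100% and 85.8%. Between the libraries the direction differed between gene and long coding TPM for 2 members, Col6a3 and Col14a1.

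**Figure D4:**
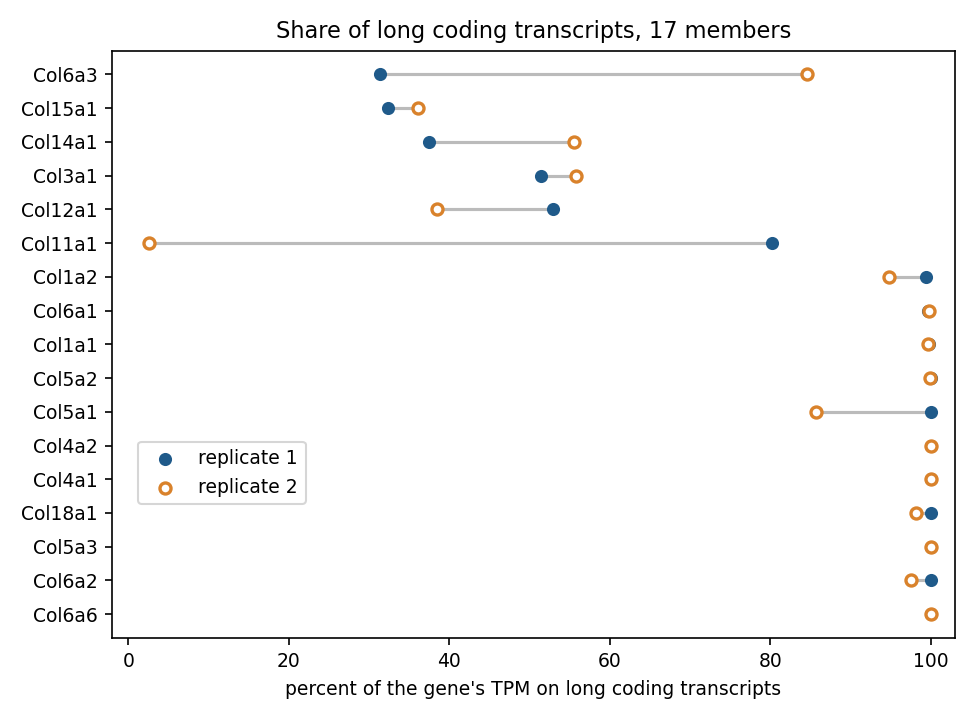
Percent of each gene's TPM on long coding transcripts for the 17 collagen genes detected in both libraries, with filled points for replicate 1 and open points for replicate 2. Col4a1, Col4a2, Col1a1, Col5a2, Col5a3 and Col6a6 lie near 100% in both libraries, while Col6a3 moves from 31.4% to 84.6% and Col11a1 from 80.2% to 2.58%.

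Both libraries gave a similar ranking of the 17 members detected in both. Members seen in replicate 2 only, such as Col19a1 at 0 and 33.55 TPM, are outside this ranking. Over the 17 members Pearson's r of log2(TPM + 1) was 0.901 and Spearman's rho 0.850, a description across genes of libraries that differ in depth. The log2 ratio of replicate 1 to replicate 2, centred on the median of the 4872 genes that had 10 or more counts in each library, ranged from -2.22 for Col12a1 to 2.04 for Col15a1. Past 2-fold toward replicate 1 were 2 of 17 members, Col15a1 and Col1a1, against 23.6% of all genes. Past 2-fold toward replicate 2 were 4, Col12a1, Col6a2, Col5a1 and Col4a2, against 24.0% of all genes. The SD of these ratios was 1.10 over members and 1.82 over all genes. For the 6 members with a mean of at least 100 TPM, the ratios lay between 0.34 and 1.18 with an SD of 0.271, against 1.25 over 1179 genes at that level. Those genes were not matched to the members by counts. The narrow range also holds for gene TPM only. Over long coding transcripts Col6a3, at 72.07 and 118.76 TPM, and Col14a1, at 46.01 and 52.32 TPM, were higher in replicate 2.

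The general direction of the family depended on the scale. Centred on the median gene, where the median over all genes is 0 by construction, 13 of 17 members were higher in replicate 1, with a median of 0.43 log2. The share of spike-ins in TPM was 9.44% for replicate 1 and 4.54% for replicate 2, and the median of 25 spike-ins was 0.98 log2 higher in replicate 1. Centred on that value, 2 of 17 members, Col1a1 and Col15a1, were higher in replicate 1 and the median was -0.51. On that scale 1 member was past 2-fold toward replicate 1 and 4 toward replicate 2. Over long coding transcripts 11 of 17 were higher in replicate 1, with a median of 0.43. Centring on spike-ins shifts every gene by the same amount, so the change of direction is not particular to collagens. Without centring the median was 0.47 log2 over the members and 0.04 over all genes compared. The median of the members was thus above that of all genes on each of these scales of gene TPM. The share of all genes was not computed on the spike-in scale or over long coding transcripts.

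Fibroblast markers other than collagens were all detected in both libraries, 8 of 8, and summed to 2557.8 TPM in replicate 1 and 2359.39 in replicate 2. Postn, the matrix protein periostin, was at 1084.16 and 1079.24 TPM, and Dcn, the fibril-binding proteoglycan decorin, at 660.14 and 680.40 TPM. Mfap5, a microfibril protein, was at 594.08 and 302.07 TPM. The other fibroblast markers went in both directions, with Dpt at 79.82 and 31.37 TPM and Pdgfra at 15.71 and 12.22, but Lum at 104.45 and 216.21, Fbn1 at 18.21 and 28.08 and Thy1 at 1.23 and 9.80. The part of fibroblast number in the collagen levels was not tested. The 6 skeletal muscle markers were detected in both libraries and summed to 110239 and 115731 TPM, led by Acta1, Tnnc2 and Ckm with means of 63145, 19771 and 13983 TPM. Mural cell markers summed to 402.23 and 615.14 TPM, with 3 of 5 in both libraries, but went in both directions. Acta2, which led both sums, was at 318.53 and 487.25 TPM, Kcnj8 at 19.03 and 88.21 and Cspg4 at 0.13 and 7.46. Higher in replicate 1 were Rgs5, at 53.03 and 31.59 TPM, and Pdgfrb, at 11.51 and 0.63.

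Collagen chains are modified, folded, secreted, trimmed and crosslinked by a dedicated set of proteins, and 53 such genes were followed beside the family. Of these, 19 were detected in both libraries, 10 in replicate 1 only, 7 in replicate 2 only, 15 had 0 counts in both, and the remaining 2, Itga10 and Timp4, were under the limit. The share detected in both was 18.2% over all protein coding genes. For hydroxylation, which stabilises the helix and prepares crosslinks, 4 of 12 were in both libraries. P4hb, the shared subunit of prolyl 4-hydroxylase, was at 366.5 and 359.92 TPM, and Plod1, a lysyl hydroxylase, at 36.03 and 28.29 TPM. Crtap, part of the prolyl 3-hydroxylase complex, was at 26.92 and 109.22 TPM. Neither of the 2 genes for sugar transfer to collagen was in both, with Colgalt1 at 0.93 and 4.98 TPM and Colgalt2 at 0.

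For folding and export 5 of 8 were in both libraries. Sparc, a collagen-binding matrix protein, was at 2986.73 and 2149.36 TPM. Ppib, the prolyl isomerase cyclophilin B, was at 305.04 and 322.73 TPM. Serpinh1, the collagen chaperone HSP47, was at 428.58 and 88.24 TPM. Of the propeptide removal genes 2 of 8 were in both, Pcolce, an enhancer of the C-proteinase, at 402.98 and 374.37 TPM and Adamts2, the N-proteinase, at 19.74 and 1.07 TPM. Bmp1, the C-proteinase itself, had 0 counts in replicate 1 and 1698 in replicate 2.

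For crosslinking 2 of 5 were in both libraries, the lysyl oxidase relatives Loxl1 at 54.69 and 32.80 TPM and Loxl3 at 40.32 and 32.16 TPM. Lox, the lysyl oxidase that crosslinks fibrils, had 4973 counts (47.31 TPM) in replicate 1 and 0 in replicate 2. Of the collagen receptors 2 of 8 were in both, the integrin subunit Itgb1 at 161.85 and 182.73 TPM and the tyrosine kinase Ddr2 at 46.02 and 8.57 TPM, while the uptake receptor Mrc2 was at 45.36 and 0.01 TPM. For breakdown 4 of 10 were in both, led by the gelatinase Mmp2 at 53.78 and 130.55 TPM. Timp3, a protease inhibitor, was at 92.25 and 14.15 TPM and Ctsk, the collagen-cutting cathepsin K, at 59.77 and 37.65 TPM. Of the 29 machinery genes detected in replicate 1, 19 were also detected in replicate 2, beside 17 of 17 collagens and 68.6% of all genes. Of the 26 detected in replicate 2, 19 were also detected in replicate 1, beside 17 of 23 collagens and 62.7% of all genes. These sets of genes were not matched by level.

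**Figure D5:**
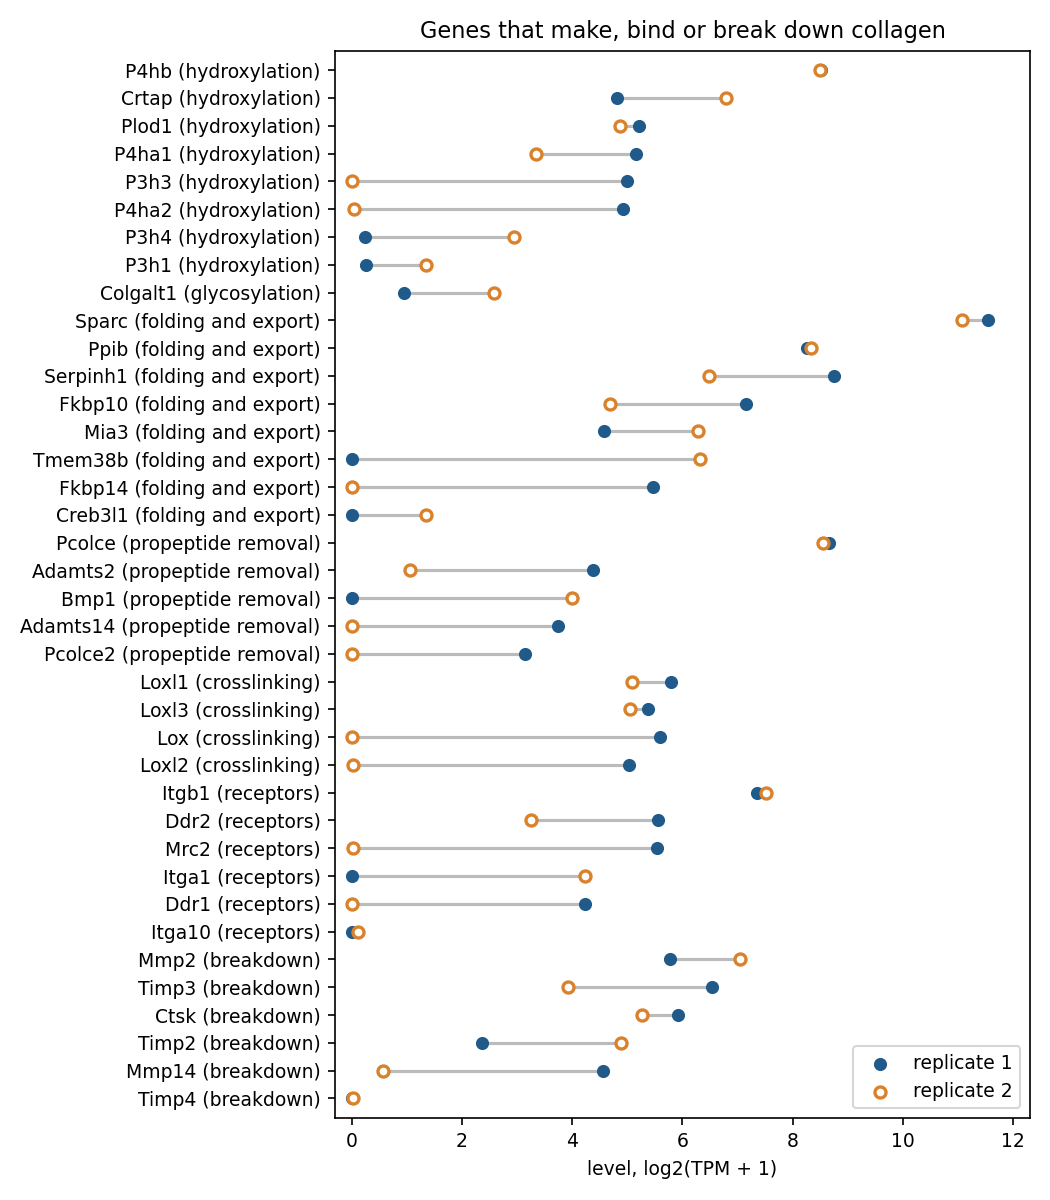
Level of the genes with any reads that modify, fold, trim, crosslink, bind or break down collagen, as log2(TPM + 1), with filled points for replicate 1 and open points for replicate 2. Sparc, P4hb, Ppib and Pcolce lie close together in both libraries, while Lox, Fkbp14 and Mrc2 lie near 0 in replicate 2 and Tmem38b and Bmp1 at 0 in replicate 1.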

How the data were processed

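RNA was measured in 2 libraries of newborn mouse muscle, which form 1 group. Per the file headers, the deposited tables are RSEM gene and transcript tables, in which the authors gave expected counts (estimated reads, not normalized) and TPM, scaled over all rows including spike-ins. Per the deposited descriptions reads were assigned to mm10 with GENCODE M4; aligner, version and strand use: not given in the sources used here. Of 69691 rows, 43346 were genes and 96 were spike-ins; other rows, with 0 and 182 expected counts, were left out. GENCODE M21 on GRCm38, the same assembly, gave symbols to 42462 genes by identifier.

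Detection needed 1 TPM and 5 expected counts. Ratios used log2(TPM + 1), and between libraries were centred on the median gene with at least 10 counts in both. Ratios of chains exceeded the spread when the sign was shared and the mean passed 2 SD. A count of 0 was taken to allow 3 counts. Long coding transcripts were defined after seeing the data. No test was possible with 1 group, and the spread may hold animals, tissue portions and library preparation. Every member was named with its values. From each list of other genes the 3 highest by mean TPM were named, and further list genes (Scx, Acan, Matn1, Sox10, Colgalt2, Dpt, Pdgfra, Lum, Fbn1, Thy1, Tek, Cdh5, Kdr, Pdgfrb, Cspg4, Itga10, Timp4, Fkbp14 and Tmem38b) were chosen after their values were seen. Some Schwann cell markers are not reported here. Members and lists were chosen with earlier results of these data known. The calculations of ratios between libraries and of glycine runs were tested on simulated data, while the detection rule was not. edgeR 4.0.16 in R 4.3.3 computed TMM factors as another scaling, and the rest was done with Python 3.11.15, pandas 2.3.3, numpy 2.4.6 and matplotlib 3.10.9. The alternatives were other detection limits, pseudocounts, units, denominators and centrings, posterior means, and each library alone.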

Additional observations from a re-analysis of the deposited data

How the results depend on the processing

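Of 93 alternative values, 81 differed from the reported ones by no more than the SD of the libraries or, for counts of genes, by at most 1.5 times and, for the median ratio, by at most 0.1 log2. In these 81 are ratios with a wide spread whose sign differs between the libraries, such as Col4a2 to Col4a1 and Col5a2 to Col5a1. The 81 also hold the shares and chain ratios of each library taken alone. With 2 libraries either value always lies within the SD of their mean, so these values could not move and say nothing about robustness. Of the rest, 10 moved further, and 2 reversed a ratio that had exceeded 2 SD. In expected counts the collagen share of the library was 1.87% in place of 0.537%, the log2 ratio of Col3a1 to Col1a1 reversed to -0.046, and that of Col6a3 to Col6a1 moved to -0.74. Over long coding transcripts, an alternative added after seeing the data, these ratios were -0.091 (reversed) and -1.94, the beaded share of collagen TPM was 12.5% and that of other classes 1.14%. The share of other classes was 1.02% with posterior mean TPM and 0.856% over members detected in both libraries, where the transmembrane share was 0. Centring on spike-ins changed the sign of the median collagen ratio, to -0.51 in place of 0.43; the cause was not tested. Taken alone, replicate 1 held 29 detected machinery genes and replicate 2 held 26. No paired analysis was possible because both libraries belong to 1 group. Replicate values may differ through animals, tissue portions or amplification of 13 pg of RNA, which cannot be told apart, and 2 libraries limit every SD.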
